A study of Mus musculus with 24 samples.

Results

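Trav9-2, Trav9-3 and Trav9-4 are V gene segments of the mouse T cell receptor alpha locus, and each is listed as a plain, a D and an N copy. The members were taken by name, as every V segment called TRAV9, TRAV9D or TRAV9N followed by -2, -3 or -4. They make up 9 of the 117 V segments listed in the Tcra libraries, with 3 plain, 3 D and 3 N copies. Receptor transcripts were profiled in thymocytes of Satb1 knockout (KO) mice and of wild-type (WT) mice, both C57BL/6 and 4 to 12 weeks old, with 3 Tcra libraries of each genotype. Satb1 is an abundant thymocyte nuclear protein that binds and folds chromatin. The labels write the KO genotype as Satb1-/-, while the series design speaks of a conditional knockout, and no Cre driver is named in the sources used here. Each library was made by 5′ RACE from total RNA, a method that copies transcripts up to their 5′ end, and was amplified with a primer in the constant region of the receptor chain. The deposited tables give, for every V–J combination, its percentage of the library. They hold no marker genes and do not measure Satb1, so neither the cell type nor the knockout could be checked. It is not stated that replicates are separate mice, so the p-values rest on a spread between libraries that may be technical.

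An alpha chain is assembled in a developing thymocyte by joining a V segment directly to a J segment. The J segments lie in an array numbered downwards from the 5′ end nearest the V segments, and a first join can be replaced by a later one that uses a more upstream V segment and a more downstream J segment. In C57BL/6 mice a large stretch of the V region is repeated, and the letters D and N mark the segments of the repeats. The V exon encodes the part of the chain that carries its germline antigen-contacting loops, while the loop across the V–J junction is made anew at each join.

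The depth of the libraries is unknown, since the files give percentages. The smallest value above 0 sets what each table can show. It was 0.0180%, 0.0593% and 0.117% in KO replicates 1, 2 and 3, and 0.0158%, 0.0157% and 0.0241% in WT replicates 1, 2 and 3. KO replicates 2 and 3 were therefore the coarsest tables. Member V–J pairs above 0 numbered 32, 7 and 7 in KO replicates 1, 2 and 3, and 26, 7 and 6 of them stood at that smallest value. In WT replicates 1, 2 and 3 they numbered 61, 65 and 34, of which 50, 46 and 29 stood at the smallest value. KO replicate 1 shared 20 of its 32 member pairs with WT replicate 1, 12 with WT replicate 2 and 2 with WT replicate 3. KO replicates 2 and 3 each shared 4 of 7 with WT replicate 1 and 2 with WT replicate 2. With WT replicate 3 they shared 1 and 2. The sharing over the pairs of all V segments is not given here.

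In GENCODE M21 (GRCm38), 8 of the 9 segments were matched by name, and Trav9-3 was not. All 8 are annotated as V genes on the plus strand of chromosome 14. Towards the J array the D copies come first, the N copies next and the plain copies last. Trav9d-2 ends 1264.7 kb before Traj58, the first J segment listed, and Trav9d-3 and Trav9d-4 end 1236.2 kb and 1173.4 kb before it. For Trav9n-2, Trav9n-3 and Trav9n-4 the distances are 953.7 kb, 925.2 kb and 862.2 kb. Trav9-2 lies 565.8 kb and Trav9-4 480.6 kb from Traj58.

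The V exons are printed to show which copies have letters that tell them apart and which have none. All are coding sequence from GENCODE M21, 5′ to 3′ on the plus strand of GRCm38. Capitals mark the 17 positions at which the 8 annotated copies differ in an alignment of the exons.
Trav9d-2, chr14:52892325-52892618, with the same letters as Trav9n-2 at chr14:53203261-53203554: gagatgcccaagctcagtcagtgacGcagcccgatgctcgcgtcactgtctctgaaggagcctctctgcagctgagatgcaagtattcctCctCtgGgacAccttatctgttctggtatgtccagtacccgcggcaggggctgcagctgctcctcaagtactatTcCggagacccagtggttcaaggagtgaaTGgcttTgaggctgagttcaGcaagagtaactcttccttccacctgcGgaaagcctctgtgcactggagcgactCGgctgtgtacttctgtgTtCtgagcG
Trav9-2, chr14:53591221-53591514: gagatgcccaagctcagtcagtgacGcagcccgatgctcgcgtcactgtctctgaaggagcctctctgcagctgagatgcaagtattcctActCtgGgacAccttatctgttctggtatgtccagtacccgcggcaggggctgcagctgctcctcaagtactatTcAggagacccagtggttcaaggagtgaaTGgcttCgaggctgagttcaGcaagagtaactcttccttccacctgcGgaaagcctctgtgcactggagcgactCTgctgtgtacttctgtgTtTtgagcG
Trav9d-3, chr14:52920819-52921112, with the same letters as Trav9n-3 at chr14:53231809-53232102: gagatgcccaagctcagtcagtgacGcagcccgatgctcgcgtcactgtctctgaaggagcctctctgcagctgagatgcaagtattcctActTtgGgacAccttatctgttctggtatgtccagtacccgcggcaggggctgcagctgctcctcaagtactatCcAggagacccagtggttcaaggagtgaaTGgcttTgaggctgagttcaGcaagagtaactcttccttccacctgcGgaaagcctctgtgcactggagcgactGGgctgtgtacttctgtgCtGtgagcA
Trav9-4, chr14:53676337-53676630: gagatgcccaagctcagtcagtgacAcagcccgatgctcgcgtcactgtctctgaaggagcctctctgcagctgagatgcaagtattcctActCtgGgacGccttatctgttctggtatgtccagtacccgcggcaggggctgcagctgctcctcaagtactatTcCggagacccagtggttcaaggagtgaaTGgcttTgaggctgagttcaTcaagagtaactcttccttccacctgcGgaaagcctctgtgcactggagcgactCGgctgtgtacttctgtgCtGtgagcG
Trav9n-4, chr14:53294737-53295030: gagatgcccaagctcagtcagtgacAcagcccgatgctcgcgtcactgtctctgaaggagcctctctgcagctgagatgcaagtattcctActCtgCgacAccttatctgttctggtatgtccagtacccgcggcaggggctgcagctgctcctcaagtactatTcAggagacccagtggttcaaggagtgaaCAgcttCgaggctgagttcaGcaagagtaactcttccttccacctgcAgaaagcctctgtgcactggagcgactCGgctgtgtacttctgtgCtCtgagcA
Trav9d-4, chr14:52983597-52983860: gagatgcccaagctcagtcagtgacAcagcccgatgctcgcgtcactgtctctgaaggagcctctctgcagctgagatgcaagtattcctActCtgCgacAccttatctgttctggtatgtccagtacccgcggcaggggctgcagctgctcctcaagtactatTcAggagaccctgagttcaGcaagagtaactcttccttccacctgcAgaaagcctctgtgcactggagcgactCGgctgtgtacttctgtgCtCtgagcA

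Each full V exon is 294 bases long and follows 46 coding bases of a leader exon. Trav9d-2 and Trav9n-2 had 0 mismatches in both exons. Trav9d-3 and Trav9n-3 also had 0, and 0 in the 235 annotated bases ahead of their start codon. Trav9d-4, with a V exon of 264 bases, lacks 30 bases that stand at positions 175 to 204 of the Trav9n-4 exon. In all other positions of both coding exons, and in 255 bases ahead of the start codon, Trav9d-4 and Trav9n-4 had 0 mismatches. Copies of equal number were not always the most alike. From Trav9d-2 to Trav9-2 the V exon carried 5 substitutions, C91A, C167A, T200C, G269T and C288T, each written as the base of Trav9d-2, the position counted from 1 at the first base of the exon, and the base of Trav9-2. Trav9d-2 and Trav9-4 differed at 6 positions of the V exon, fewer than the 10 between Trav9n-4 and Trav9-4.

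**Figure D1:**
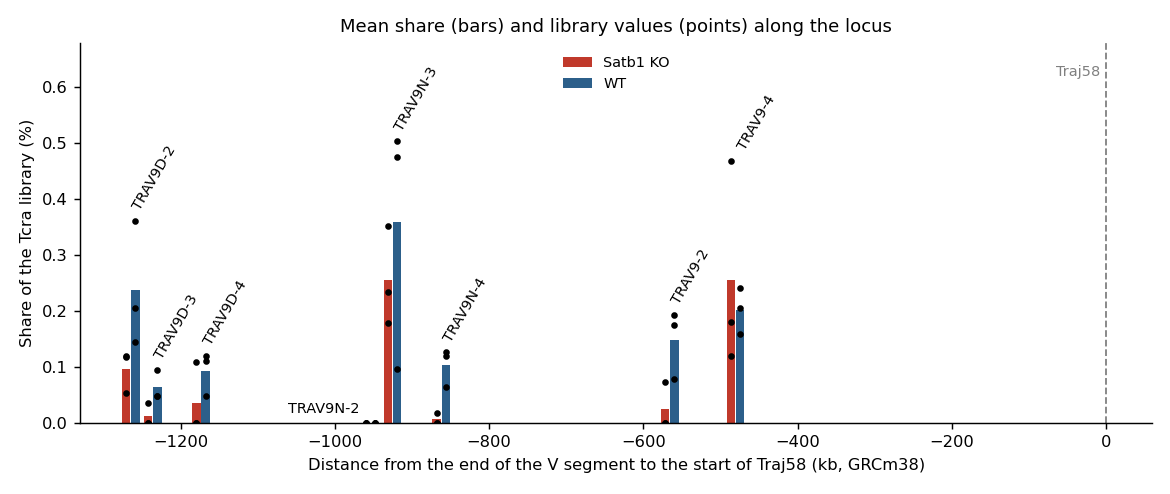
Mean listed share of each annotated copy (bars, KO left of WT) with the 3 library values of each genotype (points), in percent of the Tcra library, against the distance in kb from the end of the V segment to the start of Traj58. TRAV9N-2 is listed at 0 in all 6 libraries although its coding sequence is that of TRAV9D-2, and TRAV9D-3 and TRAV9N-3, which are also identical, have WT means of 0.0634% and 0.358%.

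The Trav9-2 group was listed at a lower share in KO libraries. With its 3 copies summed, TRAV9-2 made up 0.126%, 0.119% and 0.117% of KO replicates 1, 2 and 3, against 0.380%, 0.440% and 0.337% of WT replicates 1, 2 and 3. The KO libraries all lay below the WT libraries. In KO replicates 2 and 3 the group held 2 V–J pairs and 1 pair, each at the smallest value of its table. The small SD in KO rests on these few pairs and is no measure of how closely the libraries match. In bulk RNA, fewer cells that use a segment and less transcript per cell cannot be told apart. The mean was 0.121% ± 0.00489 in KO and 0.386% ± 0.0520 in WT (SD, n = 3 each). TRAV9-2 fell by 1.55 ± 0.357 (SE) on the log2(percent + 0.0157) scale, with a limma adjusted p of 0.0217. Of the 48 V segments tested with copies summed, 9 were called at an adjusted p under 0.05, or 18.8%, of which 3 rose and 6, or 12.5%, fell, and 16, or 33.3%, had every KO library below every WT library. The median log2 fold change over the 48 was -0.58, and that of TRAV9-2 was -0.97 relative to it. With log shares centred on each library's mean, TRAV9-2 had a log2 fold change of -0.91 (limma adjusted p = 0.196, not called), and the median over all became 0.07, with 5 called higher and 3 lower. The call was also lost without WT replicate 1, 2 or 3 (limma adjusted p of 0.0892, 0.119 and 0.0704), with a variance trend (0.120), and with each V–J pair counted once (0.0729).

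Split by copy, the Trav9-2 values came from TRAV9D-2 and plain TRAV9-2. TRAV9D-2 had 0.0541%, 0.119% and 0.117% in KO replicates 1, 2 and 3, against 0.206%, 0.362% and 0.144% in WT replicates 1, 2 and 3. The groups did not overlap, as for 27 of the 84 V segments tested singly, or 32.1%, that had every KO library below every WT library. Its log2 fold change of -1.14 ± 0.574 (SE) was not called (limma adjusted p = 0.238). Plain TRAV9-2 had 0.0722% in KO replicate 1 and was listed at 0 in KO replicates 2 and 3, against 0.174%, 0.0787% and 0.193% in WT replicates 1, 2 and 3. TRAV9N-2 was listed at 0 in all 6 libraries.

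The genotypes overlapped in the Trav9-3 group. With copies summed it made up 0.271%, 0.178% and 0.352% of KO replicates 1, 2 and 3, against 0.523%, 0.598% and 0.144% of WT replicates 1, 2 and 3. WT replicate 3 lay below every KO library. The log2 fold change was -0.46 ± 0.597 (limma adjusted p = 0.591), -1.07 without WT replicate 3, and 0.19 after centring. Most of it was listed as TRAV9N-3, with 0.235%, 0.178% and 0.352% in the KO libraries and 0.475%, 0.503% and 0.0963% in the WT libraries. The log2 fold change of TRAV9N-3 was -0.23 ± 0.726 (limma adjusted p = 0.833), -0.95 without WT replicate 3, and 0.70 after centring. TRAV9D-3 had 0.0361% in KO replicate 1 and was listed at 0 in KO replicates 2 and 3, against 0.0475%, 0.0944% and 0.0481% in the WT libraries. Plain TRAV9-3 was listed at 0 in all 6 libraries.

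The genotypes also overlapped in the Trav9-4 group. Its copies summed to 0.307%, 0.119% and 0.469% in KO replicates 1, 2 and 3, against 0.269%, 0.440% and 0.481% in WT replicates 1, 2 and 3. The log2 fold change was -0.54 ± 0.555 (limma adjusted p = 0.508), and 0.10 after centring. Plain TRAV9-4, the annotated member nearest to the J array, had 0.180%, 0.119% and 0.469% in the KO libraries and 0.158%, 0.204% and 0.241% in the WT libraries. KO replicate 3 was the highest library and KO replicate 2 the lowest. The log2 fold change of TRAV9-4 was 0.13 ± 0.619 (limma adjusted p = 0.867), and -0.40 without KO replicate 3. TRAV9D-4 had 0.108% in KO replicate 1 and was listed at 0 in KO replicates 2 and 3, against 0.0475%, 0.110% and 0.120% in the WT libraries. TRAV9N-4 had 0.0180% in KO replicate 1 and was listed at 0 in KO replicates 2 and 3, against 0.0634%, 0.126% and 0.120% in the WT libraries.

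**Figure D2:**
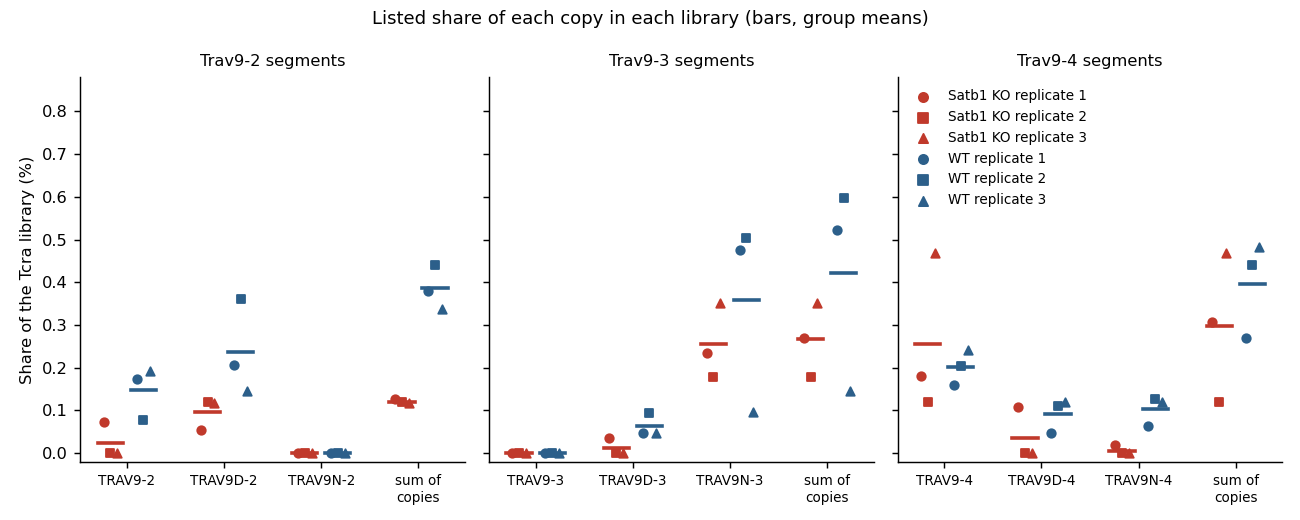
Share of the Tcra library in percent (vertical axis) for each copy of Trav9-2, Trav9-3 and Trav9-4 and for the sum of the 3 copies, with KO libraries left of WT libraries; points are single libraries and bars are group means. The sums of the Trav9-2 copies do not overlap between KO (0.117% to 0.126%) and WT (0.337% to 0.440%), while those of the Trav9-3 and Trav9-4 copies do.

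Of the 9 members, 7 were above 0 in at least 1 library. TRAV9D-2, TRAV9N-3 and TRAV9-4, 3 in all, were above 0 in all 6 libraries and reached the mean share of 0.1% required for a test. None of the 3 was called singly, where 4 of 84 V segments, or 4.76%, were called and the median log2 fold change was -0.73. TRAV9-2, TRAV9D-3, TRAV9D-4 and TRAV9N-4 were above 0 in replicate 1 alone among the KO libraries, and in every WT library. The WT means of TRAV9D-3 (0.0634%), TRAV9D-4 (0.0927%) and TRAV9N-4 (0.103%) lay below 0.117%, the smallest value of KO replicate 3, and that of TRAV9-2 was 0.149%. All 4 lay above 0.0593%, the smallest value of KO replicate 2. Among the 98 V segments above 0 in every WT library, 16, or 16.3%, were listed at 0 in KO replicates 2 and 3. Among the 17 with a WT mean no higher than that of TRAV9-2, 11 were, or 64.7%. The 4 members are themselves counted in the 16 and in the 11, and the bound is the value of 1 of them. Without a filter on low shares TRAV9N-4 was called lower (limma adjusted p = 0.0446), where 7 of 109 V segments, or 6.42%, were called. In KO replicates 2 and 3 a lower share and a coarser table cannot be told apart for these 4 segments. KO replicate 1 had a finer table than WT replicate 3. In that 1 library TRAV9D-4 lay within its WT values, and TRAV9-2, TRAV9D-3 and TRAV9N-4 lay below theirs.

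Summed over all copies, the members made up 0.704%, 0.415% and 0.938% of KO replicates 1, 2 and 3, against 1.17%, 1.48% and 0.963% of WT replicates 1, 2 and 3. The groups did not overlap, though KO replicate 3 lay just under WT replicate 3. When every V–J pair above 0 was given equal weight, the members were 2.32%, 1.26% and 1.87% of those pairs in the KO libraries and 3.08%, 3.30% and 2.16% in the WT libraries, and the groups overlapped. How the authors' caller split copies with identical letters is not given in the sources used here, so every sum by class of copy, and its J profile, rests on an unknown assignment. The D copies summed to 0.198%, 0.119% and 0.117% in the KO libraries and 0.301%, 0.566% and 0.313% in the WT libraries, without overlap. The N copies summed to 0.253%, 0.178% and 0.352% in the KO libraries and 0.539%, 0.629% and 0.217% in the WT libraries, which overlapped. The plain copies summed to 0.253%, 0.119% and 0.469% in the KO libraries and 0.333%, 0.283% and 0.433% in the WT libraries, which overlapped as well. Within the members' own sum, D copies held 23.1% ± 9.17 in KO and 32.2% ± 6.32 in WT (SD, n = 3 each). N copies held 38.8% ± 3.64 in KO and 37% ± 12.7 in WT, and plain copies 38.2% ± 10.9 in KO and 30.8% ± 13.1 in WT. The library values of each class overlapped between the genotypes in this split.

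The other V segments with copies, TRAV9-1 included, were a list of 90. Of these, 67 were tested singly, and 0 rose and 0 fell, with a median log2 fold change of -0.73. That median was -0.26 over the 30 plain copies tested, -1.40 over the 22 D copies and -1.46 over the 15 N copies. Copies with a lower mean share do not enter these medians. As sums, the other D copies held 21.9%, 22.6% and 15.2% of the KO libraries and 35.0%, 32.5% and 26.2% of the WT libraries. The other N copies held 5.72%, 7.06% and 7.62% in KO and 9.32%, 10.3% and 9.53% in WT, and the other plain copies 40.5%, 35.0% and 41.97% in KO and 44.5%, 44.7% and 53.04% in WT. None of the 3 sums overlapped between the genotypes, so the lack of overlap of the D members was shared by the copies of other families. TRAV9-1, the remaining plain segment of the family, had 0.451%, 0.652% and 0.469% in the KO libraries and 0.650%, 1.24% and 0.939% in the WT libraries. Its D copy, TRAV9D-1, had 0.0361%, 0.119% and 0% in the KO libraries and 0.0475%, 0.0472% and 0.0963% in the WT libraries, which overlapped. Its N copy, TRAV9N-1, was listed at 0 in all 6 libraries, like TRAV9N-2.

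Copies were compared with each other in the WT libraries alone, since no pair of member copies reached a mean of 0.1% on both sides over the 6 libraries. The comparison took 65 pairs of copies of all families with both copies above 0 in every WT library, of which 44, or 67.7%, differed at an adjusted p under 0.05. The choice of these libraries was made after the data were seen. TRAV9D-3 was listed lower than TRAV9N-3, with a log2 ratio of -2.0 ± 0.440 (SE, limma adjusted p = 0.000974), although the annotated coding letters of both are the same. TRAV9D-4 was listed lower than plain TRAV9-4, with a log2 ratio of -1.06 ± 0.383 (limma adjusted p = 0.0225). TRAV9N-4 was listed lower than TRAV9-4, with a log2 ratio of -0.90 ± 0.380 (limma adjusted p = 0.0472). For TRAV9D-4 over TRAV9N-4, which differ by the 30 missing bases, the log2 ratio was -0.16 ± 0.377 (limma adjusted p = 0.707). For TRAV9D-2 over TRAV9-2 it was 0.61 ± 0.457 (limma adjusted p = 0.248). Each of the 3 calls was lost without WT replicate 1 or without WT replicate 2, with a limma adjusted p of 0.130 and 0.0824 for TRAV9D-3 over TRAV9N-3, and that of TRAV9N-4 over TRAV9-4 also without WT replicate 3 (0.117). With the larger pseudocount of 0.117, the calls of TRAV9D-4 and TRAV9N-4 over TRAV9-4 were lost too (limma adjusted p of 0.0640 and 0.0988).

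Libraries from KO thymocytes joined the members to J segments nearer the 5′ end of the array. Over all members summed, the mean Traj number, weighted by share, was 36.0, 40.3 and 49.1 in KO replicates 1, 2 and 3, against 29.4, 25.9 and 32.9 in WT replicates 1, 2 and 3. All KO libraries lay above all WT libraries. The mean was 41.8 ± 6.68 in KO and 29.4 ± 3.49 in WT (SD, n = 3 each), while all other V segments had 47.2 ± 2.26 in KO and 30.6 ± 1.54 in WT. J segments with Traj42 and higher numbers took 30.8%, 42.9% and 87.5% of the members' sum in the KO libraries and 21.6%, 18.1% and 30.0% in the WT libraries. J segments with Traj21 and lower numbers took 20.5%, 0% and 0% in the KO libraries and 33.8%, 37.2% and 20.0% in the WT libraries. KO replicate 1 held all of the members' 3′ joins seen in KO, and its share lay just above that of WT replicate 3.

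**Figure D3:**
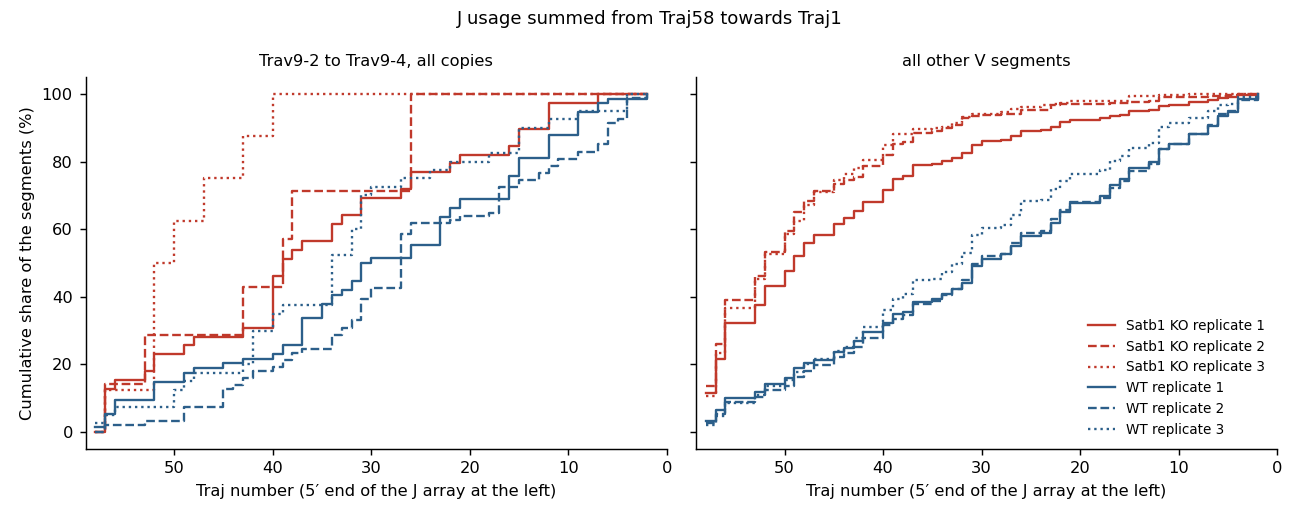
Cumulative share (percent, vertical axis) of the J segments from Traj58 down to the lowest Traj number (horizontal axis, 5′ end at the left) in each KO library (red) and WT library (blue), for the members summed (left panel) and for all other V segments (right panel). Each KO curve of the members has large steps, with 7 pairs above 0 in KO replicates 2 and 3, and at Traj42 the 3 KO libraries have reached 30.8%, 42.9% and 87.5% against 18.1% to 30.0% in the WT libraries.

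The shift passed the test for TRAV9-3 and TRAV9-4 with copies summed. TRAV9-4 had mean Traj numbers of 38.4, 45.5 and 46.3 in KO replicates 1, 2 and 3, against 32.3, 25.1 and 32.9 in WT replicates 1, 2 and 3. The groups did not overlap, and the mean rose by 13.3 ± 3.30 (SE, limma adjusted p = 0.00793). TRAV9-3 had 36.3, 40.7 and 50.3 in the KO libraries and 31.3, 24.2 and 32.3 in the WT libraries, also without overlap. Its mean rose by 13.1 ± 4.11 (limma adjusted p = 0.0195), a call lost without WT replicate 2 (0.0646). Both calls rest on few pairs, since in KO replicates 2 and 3 TRAV9-4 held 2 and 4 V–J pairs above 0 and TRAV9-3 held 3 and 2. TRAV9-2 had 29.9, 34.5 and 57.0 in the KO libraries and 24.5, 29.1 and 33.3 in the WT libraries. KO replicate 1 lay within the WT range, and the difference of 11.5 ± 6.68 was not called (limma adjusted p = 0.154). The value of 57.0 in KO replicate 3 is that of 1 V–J pair, and without that library the difference was 3.19. Of 40 V segments tested, 31 were called higher, or 77.5%, and 0 lower, with a median difference of 13.4, and 80% had every KO library above every WT library, so 2 calls in 3 is close to the share over all V segments.

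**Figure D4:**
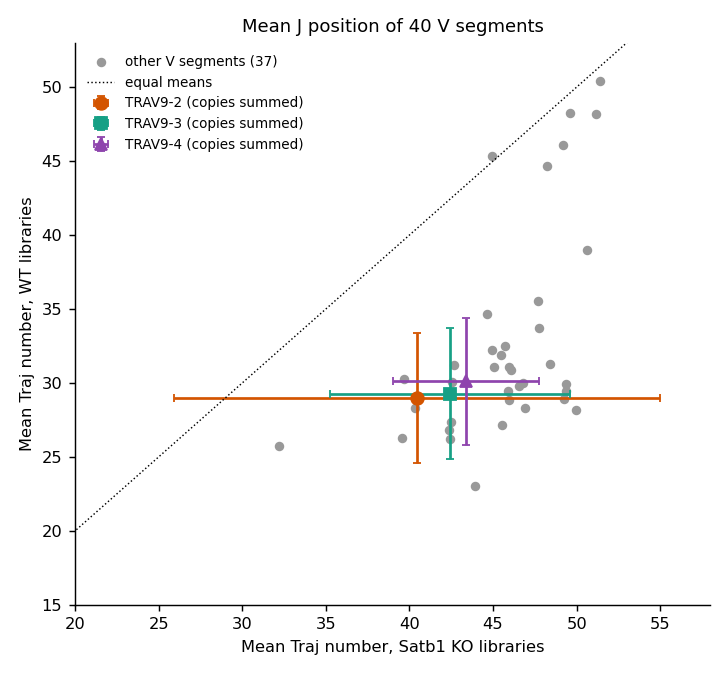
Mean Traj number in KO libraries (horizontal axis) against that in WT libraries (vertical axis) for the 40 V segments tested with copies summed; bars are ± 1 SD over 3 libraries and the dotted line marks equal means. TRAV9-2 (40.5 in KO, 28.99 in WT), TRAV9-3 (42.4 and 29.3) and TRAV9-4 (43.4 and 30.1) lie on the KO side of the line among the other V segments.

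The 5′ J share, that of Traj42 and higher numbers, was compared as well. For TRAV9-2 it was 28.6%, 50% and 100% in the KO libraries and 4.17%, 21.4% and 21.4% in the WT libraries. For TRAV9-3 it was 40%, 33.3% and 100% in the KO libraries and 30.3%, 15.8% and 33.3% in the WT libraries. For TRAV9-4 it was 23.5%, 50% and 75% in the KO libraries and 29.4%, 17.9% and 35.0% in the WT libraries. KO replicate 3, the coarsest table, was the highest for each of them, with 1, 2 and 4 V–J pairs above 0 for TRAV9-2, TRAV9-3 and TRAV9-4. The differences were 43.8 ± 17.8, 31.3 ± 17.8 and 22.1 ± 13.5 percentage points (SE), and none was called (limma adjusted p of 0.0671, 0.163 and 0.188), where 24 of 40 V segments, or 60%, were called. Without KO replicate 1, which is the KO library nearest to WT in these shares for TRAV9-2 and TRAV9-4, the difference was 59.3 points for TRAV9-2 and 35.1 points for TRAV9-4, and both were called (limma adjusted p of 0.0249 and 0.0292). Without KO replicate 3 the differences for TRAV9-2, TRAV9-3 and TRAV9-4 were 23.6, 10.2 and 9.34 points, none called (limma adjusted p of 0.0503, 0.313 and 0.407). Over all V segments, between 17 and 28 of 40 were called with 1 library left out.

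By copy, 3 segments could be tested. TRAV9D-2 had mean Traj numbers of 28.7, 34.5 and 57.0 in the KO libraries and 24.0, 26.8 and 35.8 in the WT libraries. TRAV9N-3 had 33.4, 40.7 and 50.3 in the KO libraries and 31.3, 24.6 and 36.8 in the WT libraries. TRAV9-4 had 37, 45.5 and 46.3 in the KO libraries and 37.8, 27.5 and 36.8 in the WT libraries. All 3 overlapped between genotypes. The differences were 11.2 ± 7.33, 10.6 ± 4.99 and 8.87 ± 3.92 (SE), none called (limma adjusted p of 0.201, 0.0893 and 0.0787), where 40 of 60 V segments, or 66.7%, were called higher. Without KO replicate 3 the difference was 2.70 for TRAV9D-2 and 6.15 for TRAV9N-3, and without WT replicate 2 it was 5.62 for TRAV9-4. Without KO replicate 1 it was 16.9 for TRAV9D-2, not called (limma adjusted p = 0.0779), 14.6 for TRAV9N-3 and 11.8 for TRAV9-4, both called (0.0302 and 0.0278). Over all V segments, between 33 and 45 of 60 were called with 1 library left out. The remaining copies had a J profile in 1 KO library, replicate 1. There the mean Traj number was 55.0 for TRAV9D-3, 40.3 for TRAV9D-4, 40 for TRAV9N-4 and 30.8 for TRAV9-2, against WT ranges of 21.8 to 32.0, 15.0 to 36.0, 15.8 to 32.6 and 25.2 to 39.8. Plain TRAV9-2 lay within its WT range and the other 3 above theirs. In that library TRAV9N-4 had 1 V–J pair above 0, TRAV9D-3 had 2, and TRAV9D-4 and TRAV9-2 had 4 each.

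The members' J position was then set against the mean of its own library, and no difference was called over the 6 libraries. The mean Traj number less that of the library gave KO minus WT values of -5.16 ± 6.08 for TRAV9-2, -3.48 ± 3.29 for TRAV9-3 and -3.35 ± 2.37 for TRAV9-4 (SE), none called (limma adjusted p of 0.547, 0.465 and 0.394). Of 40 V segments, 5 were called, or 12.5%, all lower. Averaged over the 6 libraries the values for TRAV9-2, TRAV9-3 and TRAV9-4 were -4.13 ± 3.04, -2.996 ± 1.65 and -2.12 ± 1.19, none called either (limma adjusted p of 0.360, 0.235 and 0.235). Here 9 of 40, or 22.5%, were called. These values turned on KO replicate 3. Without it the mean over libraries was -7.90 for TRAV9-2 and -4.61 for TRAV9-3, both called lower (limma adjusted p of 0.00101 and 0.0182), and KO minus WT for TRAV9-2 was -12.7, also called (0.00541). With 1 library left out, between 6 and 17 of the 40 V segments were called for the mean, and between 4 and 6 for KO minus WT.

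By class of copy, the D members summed to mean Traj numbers of 39.8, 34.5 and 57.0 in the KO libraries and 27.2, 23.7 and 29.8 in the WT libraries. The plain members had 35.2, 45.5 and 46.3 in the KO libraries and 31.2, 30.9 and 34.4 in the WT libraries. The N members had 33.9, 40.7 and 50.3 in the KO libraries and 29.4, 25.7 and 34.4 in the WT libraries. D and plain members did not overlap between genotypes, and KO replicate 1 of the N members lay below WT replicate 3. Of the V segments tested, 71.7% singly and 80% with copies summed had every KO library above every WT library. Within the WT libraries, the D members had the lowest mean, 26.9 ± 3.08, the N members 29.9 ± 4.38 and the plain members 32.2 ± 1.92 (SD, n = 3). D members had the lowest of the 3 values in each WT library, and this difference between classes was not tested. In KO replicates 1 and 3 they had the highest value. The D members held 2 V–J pairs above 0 in KO replicate 2 and 1 pair in KO replicate 3.

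Copies of equal number were also set against each other for J position in the WT libraries. The mean Traj number of TRAV9D-4 less that of TRAV9-4 was -8.65 ± 3.33 (SE, limma adjusted p = 0.245) and that of TRAV9N-4 less TRAV9-4 was -7.89 ± 4.96 (limma adjusted p = 0.428). For TRAV9D-3 less TRAV9N-3, the pair with identical coding letters, it was -5.10 ± 3.60 (limma adjusted p = 0.428). TRAV9D-2 less TRAV9-2 gave -3.23 ± 3.97 (limma adjusted p = 0.658) and TRAV9D-4 less TRAV9N-4 gave -0.76 ± 6.66 (limma adjusted p = 0.973). None of the 65 pairs of copies over all families was called by limma, or 0%, with 12 at an unadjusted p under 0.05, so no difference in J position between copies could be shown in these libraries.

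The WT J profile of the members was spread over the whole array. Over 6 windows from the 5′ end (Traj58 to 48, 47 to 38, 37 to 30, 29 to 21, 20 to 10 and 9 to 1), the members held 39.8%, 35.3%, 5.13%, 13.8%, 5.13% and 0.85% in KO and 14.6%, 14.2%, 26.6%, 15.4%, 16.1% and 12.9% in WT, as means of 3 libraries. All other V segments had 63.9% of their sum in the first window and 19.3% in the second in KO, against 19.4% and 17.5% in WT. In the first window the members' KO libraries had 28.2%, 28.6% and 62.5%, and the other V segments' KO libraries had 56.0%, 68.4% and 67.2%. In the second window the members' KO libraries had 25.6%, 42.9% and 37.5%, above their WT libraries at 6.76%, 15.96% and 20%. In the third window the members' KO libraries had 15.4%, 0% and 0%, below their WT libraries at 25.7%, 19.1% and 35.0%. All other V segments were lower in KO there as well, at 10.3%, 8.10% and 6.15% against 15.7%, 17.5% and 19.7% in WT.

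Single V–J pairs of the members were sparse. Of 387 possible pairs, 137 were above 0 in at least 1 library and 88 in exactly 1 library. In KO libraries the pairs used 24 J segments and in WT libraries 41. No pair was above 0 in all 3 KO libraries, and 4 were in all 3 WT libraries. No pair reached the mean of 0.1% required for a test, the highest being 0.0474%. Without that filter 0 member pairs were called by limma, where 4.48% of 3123 pairs over all V segments were called, and 2 had an unadjusted p under 0.05. The pairs with the highest KO means were TRAV9N-3 with TRAJ52, at 0.0180%, 0% and 0.234% in KO and 0.0317%, 0% and 0% in WT, and TRAV9-4 with TRAJ40, at 0.0361%, 0% and 0.117% in KO and 0.0158%, 0.0157% and 0.0481% in WT. TRAV9-4 with TRAJ43, TRAJ50 and TRAJ52 followed, each at 0.117% in KO replicate 3, which was that table's smallest value. The highest WT means were those of TRAV9-4 with TRAJ34, listed at 0 in KO and at 0.0158%, 0% and 0.0722% in WT, and of TRAV9D-2 with TRAJ31, at 0.0180%, 0% and 0% in KO and 0.0317%, 0.0315% and 0.0241% in WT. TRAV9-4 with TRAJ40 came after them. TRAV9N-3 with TRAJ27 and TRAV9-2 with TRAJ31 were next. Both were listed at 0 in KO, against 0.0787% in WT replicate 2 alone for the TRAJ27 pair and 0.0158% and 0.0481% in WT replicates 1 and 3 for the TRAJ31 pair.

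With both genotypes averaged, the J profile nearest to each group was that of TRAV10. The measure was the total variation distance over the 6 windows in group means, averaged over the genotypes, among 33 other V segments with a mean share of at least 0.5%. It was 8.996% to TRAV9-3, 14.2% to TRAV9-4 and 15.8% to TRAV9-2. TRAV3-3 (18.3%) and TRAV7-3 (18.6%) came next for TRAV9-2, TRAV6-6 (13.6%) and TRAV6-7 (15.3%) for TRAV9-3, and TRAV6-6 (14.5%) and TRAV3-3 (15.9%) for TRAV9-4. In the WT libraries alone TRAV12-2 was nearer than TRAV10 to TRAV9-2 (15.6% against 20.4%) and to TRAV9-4 (3.67% against 4.05%), and TRAV6-6 was nearer to TRAV9-3 (9.83% against 10.6%). In the KO libraries alone TRAV6-6 was nearer than TRAV10 to TRAV9-4 (17.2% against 24.4%). The group means rest on 3 libraries of each genotype, and the V segments of a library share its depth.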

How the data were processed

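Members and lists were chosen with earlier results of these data known. The authors trimmed reads with fastp, per the submitters' processing notes, which give no version. No aligner, V–J caller or build is named (not given in the sources used here). The deposited values are in percent: each table crosses V with J segments and adds up to 100. They do not say whether reads or clonotypes were counted. Counts were not reconstructed, so intervals and detection floors for counting error were not computed.

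Shares were compared with limma 3.58.1 (R 4.3.3) on log2(percent + 0.0157), where the pseudocount equals the lowest nonzero entry of the finest Tcra table. All V segments with a mean of at least 0.1% entered, singly and with plain, D and N copies summed. Mean Traj number and the share of Traj42 and above were fitted by limma over V segments also above 0 in all 6 libraries, and copy ratios and differences over all pairs of copies. Adjusted p-values are Benjamini-Hochberg values over every segment or pair tested, called at 0.05. The fits were also run on simulated data. The simulated mean Traj numbers had the same spread for every segment, unlike those of members with few V–J pairs, and so do not bear on these. The named segments are all members, the 5 pairs with the highest mean in each genotype, and the 3 nearest J profiles. For copy ratios, libraries of equal replicate number had a residual r of 0.306, 0.103 and 0.102, all above the bound of 0.1. Whether these libraries deviated together was not tested. With the replicate block 0 ratios were called for genotype and 29 for the mean over libraries, against 0 and 29 without it. Alternatives left out each library, changed the pseudocount or filter, centred shares, modelled a variance trend, or counted each pair once. The WT-alone copy fits, the J number relative to the library, and the alternatives for the members' sums over all copies and by class were added after the data were seen. Gene positions and sequences came from GENCODE M21, in which 114 of the 117 V segments were matched. Python 3.11.15 and Biopython 1.88 were used.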

Additional observations from a re-analysis of the deposited data

How the results depend on the processing

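Resolution limits these results, since most member values stand at the smallest value of their table. Numbers of calls are for KO minus WT unless a mean is named. For V shares singly (4 called), the number was 15 with the replicate block, 11 with a variance trend, 1 with the smaller and 18 with the larger pseudocount, 7 without a filter and 0 with each pair once. It ranged between 0 and 15 when 1 library was left out, with 13 without KO replicate 1, 2 without KO replicate 2, 15 without KO replicate 3 and 0 without any 1 of the WT libraries. With copies summed (9 called) it was 18 with the replicate block, 15 with a variance trend, 4 with the smaller and 17 with the larger pseudocount and 0 with each pair once, and between 3 and 13 with 1 library left out. Centring gave 3 higher and 0 lower singly, against 3 higher and 1 lower. For mean Traj number it was 24 singly with each pair once, and between 33 and 45 singly and between 23 and 33 summed with 1 library left out. For the 5′ J share it was 21 singly at a mean of at least 0.5%, 11 singly and 9 summed with each pair once, and between 18 and 36 singly and between 17 and 28 summed with 1 library left out. Relative J number gave between 3 and 9 singly and between 4 and 6 summed, and for the mean over libraries between 9 and 20 singly and between 6 and 17 summed. The copy ratio changed with genotype in 3 pairs at the larger pseudocount and between 0 and 7 with 1 library left out. Its mean was called in 60 pairs without a filter and between 22 and 36 with 1 library left out, and the J difference between copies in 0 with a variance trend and between 0 and 3 with 1 library left out. In WT alone the copy ratio was called in between 18 and 43 pairs. With each pair once, in percent of pairs above 0, KO minus WT was -1.03 points for all members. It was -0.0377 for plain, -0.542 for D and -0.452 for N copies. With 1 library left out, the KO minus WT sums in percent of the library lay between -0.645 and -0.382 points for all members. They lay between -0.164 and 0.0111 points for plain, -0.295 and -0.162 for D, and -0.323 and -0.117 for N copies. Directions turned for TRAV9N-3 (-0.95 to 0.16 on log2 with 1 library left out, 0.70 centred), TRAV9-4 (-0.40 to 0.53), and, centred, for TRAV9-3 (0.19) and TRAV9-4 (0.10) with copies summed. They also turned for the mean relative J number of TRAV9-4 (-1.49 to 0.99) and, in WT alone, for the TRAV9D-2 over TRAV9-2 ratio (-0.078 to 1.11) and the J differences of TRAV9D-2 less TRAV9-2 (-7.08 to 1.64) and TRAV9D-4 less TRAV9N-4 (-11.3 to 6.43). For single V shares, libraries of equal replicate number had a residual r of 0.318, -0.0367 and 0.184 for numbers 1, 2 and 3, not all above 0.1. KO replicate 2 correlated better with WT replicate 1 there (0.143). For mean Traj number with copies summed the values were 0.275, 0.0522 and -0.0864. With 3 libraries of each genotype these values cannot decide whether replicate numbers mark pairs. Under the replicate block the mean Traj number of TRAV9-2 summed was called (limma adjusted p = 0.0425), as was its 5′ J share (0.0384), and, singly, those of TRAV9D-2 (0.0492 and 0.0233) and the mean of TRAV9N-3 (0.0463). Even without the block, 77.5% and 60% of all V segments tested were called for these measures with copies summed, and 66.7% and 53.3% singly. With each pair once, the mean Traj number of TRAV9-2 summed was called too (limma adjusted p = 0.0276). With the 5′ J share taken from Traj48 upwards, that of TRAV9-3 summed was called (limma adjusted p = 0.0426). The causes were not tested. Of 316 alternative values for members singly, with copies summed or as pairs of copies, 269 kept direction and side of the threshold.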

Other observations

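Identical coding copies were listed unequally in other families too. Among all copied V segments with an annotated coding sequence, 15 pairs of copies had the same coding letters, and 13 of them were not members. In those 13 both copies were above 0. TRAV12D-3 averaged 2.67% and TRAV12N-3 0.00665% over the 6 libraries, and TRAV7D-5 averaged 8.77% and TRAV7N-5 0.177%. TRAV12D-2 (0.714%) and TRAV12N-2 (0.952%) were closer. TRAV9D-2 and TRAV9N-2 were the pair with 1 copy listed at 0 in all 6 libraries. No TRAV9 segment is among the 15 V segments listed in the Tcrd libraries.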
